A study of Mus musculus with 40 samples.

Results

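Vascular smooth muscle in brown adipose tissue was followed through 9 genes, Acta2, Myh11, Tagln, Cnn1, Myocd, Lmod1, Mylk, Smtn and Des. They were chosen by symbol, as the rows whose Ensembl identifiers map to these names, out of 52636 genes in the count table. All 9 were found, and all 9 were among the 17079 genes that passed the filter on low counts. The tissue came from 40 male C57BL/6 mice, aged 10 to 12 weeks in the series' design text and 10 to 14 weeks in the labels, 5 in each of 8 groups, and each library is bulk RNA from 1 mouse. Antibody was given to every mouse once, by the intraperitoneal route. Controls had an anti-ragweed isotype antibody at 40 mg/kg, and the other mice received anti-Jag1 and anti-Jag2 at 20 mg/kg each, here called the Jag antibodies. Tissue was taken at 15 h, 5 d or 7 d. A further pair of groups at 7 d, 1 under each antibody, was also given the thyroid hormones T4 at 1 ug/g and T3 at 0.05 ug/g daily from day 2. No group was left without antibody. The series concerns Notch signalling in the thyroid, and the comparisons ask how blocking the Jagged ligands changed the tissue and what hormone replacement changed on top of it. The labels do not say whether the mice came from separate litters or cages, and the tests treat each mouse as an independent sample.

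Smooth muscle cells wrap arteries and arterioles and set their diameter by contracting actin filaments against myosin. Their contractile genes are switched on together by serum response factor (SRF) with its coactivator myocardin, at DNA elements called CArG boxes. Jagged ligands on endothelial cells activate Notch3 on neighbouring mural cells, and the Notch effector RBPJ binds DNA at a short core sequence. Thyroid hormone is known to relax resistance vessels.

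The promoter of Acta2, the smooth muscle actin gene which was lower with hormone under both antibodies, holds matches to both kinds of element. Its CArG-like sites are shown with 30 bases each, 5′ to 3′ on the gene's strand, from RefSeq on GRCm38.p6. Capitals mark the CArG-like match, and in the second sequence they also run on through an RBPJ core (TGGGAA) that overlaps it. The sites lie at chr19:34255438-34255467 and chr19:34255388-34255417 on the minus strand, with the CArG-like matches at -84 to -75 and -34 to -25 from the RefSeq start. All 30 bases of each also lie in an annotated exon of another Acta2 transcript.
Acta2 upper site: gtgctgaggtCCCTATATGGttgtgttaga
Acta2 lower site: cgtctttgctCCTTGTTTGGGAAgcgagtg
Smtn is shown because its window was the other one with an RBPJ core, read as TTCCCA on the opposite strand and set in capitals, at chr11:3539324-3539542 on the minus strand.
Smtn: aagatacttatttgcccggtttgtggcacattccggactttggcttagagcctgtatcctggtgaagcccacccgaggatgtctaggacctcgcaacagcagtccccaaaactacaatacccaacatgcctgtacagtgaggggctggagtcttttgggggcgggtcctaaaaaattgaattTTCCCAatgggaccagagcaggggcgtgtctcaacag
Windows of 250 bases before the start were found for 6 of the 9 genes, and Myh11, Tagln and Myocd are named only. The CArG-like match (a CArG box allowing 1 base other than A or T at its centre) was present in 8.59% of 32851 such windows and the RBPJ core TGGGAA in 21.6%, searched on both strands. The windows of Cnn1, Lmod1, Mylk and Des held neither match.

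The 40 libraries held 12217623 to 36511893 counts, with a median of 18949808. Brown adipocyte markers were high in every mouse, with 10 genes summing to between 8767 and 74541 CPM (counts divided by the library total after edgeR's TMM correction). Skeletal muscle RNA varied widely between samples. The summed level of 8 skeletal muscle genes ran from 1018 to 175926 CPM in control mice at 5 d and from 0.878 to 43.9 CPM in Jag antibody mice at 5 d. Their log2 CPM, averaged per mouse into a muscle score, is given beside the results it moves with. In bulk tissue, fewer smooth muscle cells and less RNA per cell cannot be told apart.

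Expressed per kilobase of exon, Des had the highest median over the 40 mice, at 28.8 CPM per kilobase. Acta2 followed at 19.3, then Smtn at 4.09, Mylk at 3.43, Tagln at 3.02 and Myh11 at 2.56. Lmod1 and Cnn1 stood at 0.918 and 0.913, and Myocd, the gene of the coactivator itself, at 0.0476. The order differed between groups. Acta2 had a mean of 22 and Des of 21.3 CPM per kilobase in Jag antibody mice at 5 d, and Tagln (11.7) stood above Smtn (4.39) and Mylk (3.80) in control mice at 7 d. Myocd was counted at 0 to 41 reads per library, so differences in it were poorly resolved at this depth.

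The filament genes were highest in control mice at 7 d without hormone. Acta2, Myh11 (smooth muscle myosin heavy chain), Tagln (transgelin, an actin-binding protein) and Cnn1 (calponin, which restrains the myosin motor) all had their highest group mean there. Acta2, Tagln and Cnn1 had their lowest mean in Jag antibody mice given T3 and T4. For Acta2 the means in log2 CPM were 6.69 ± 0.88 (SD, n = 5) in control mice at 7 d, 5.80 ± 0.73 at 5 d and 4.93 ± 0.35 at 15 h. Lmod1 (leiomodin, an actin nucleator) and Des (desmin, an intermediate filament protein) were highest in control mice at 5 d. Smtn (smoothelin, a contractile cytoskeletal protein) and Myocd were highest in control mice given hormone. Mylk, the kinase that starts contraction by phosphorylating the myosin light chain, was highest in Jag antibody mice at 15 h. With the 8 groups placed in order for each gene, 4 of 63 neighbouring pairs differed by more than the larger of their SDs. These were control 7 d over control 5 d for Acta2, control 7 d over Jag antibody 7 d and control 15 h over control with hormone for Tagln, and control 7 d over Jag antibody 15 h for Cnn1.

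**Figure D1:**
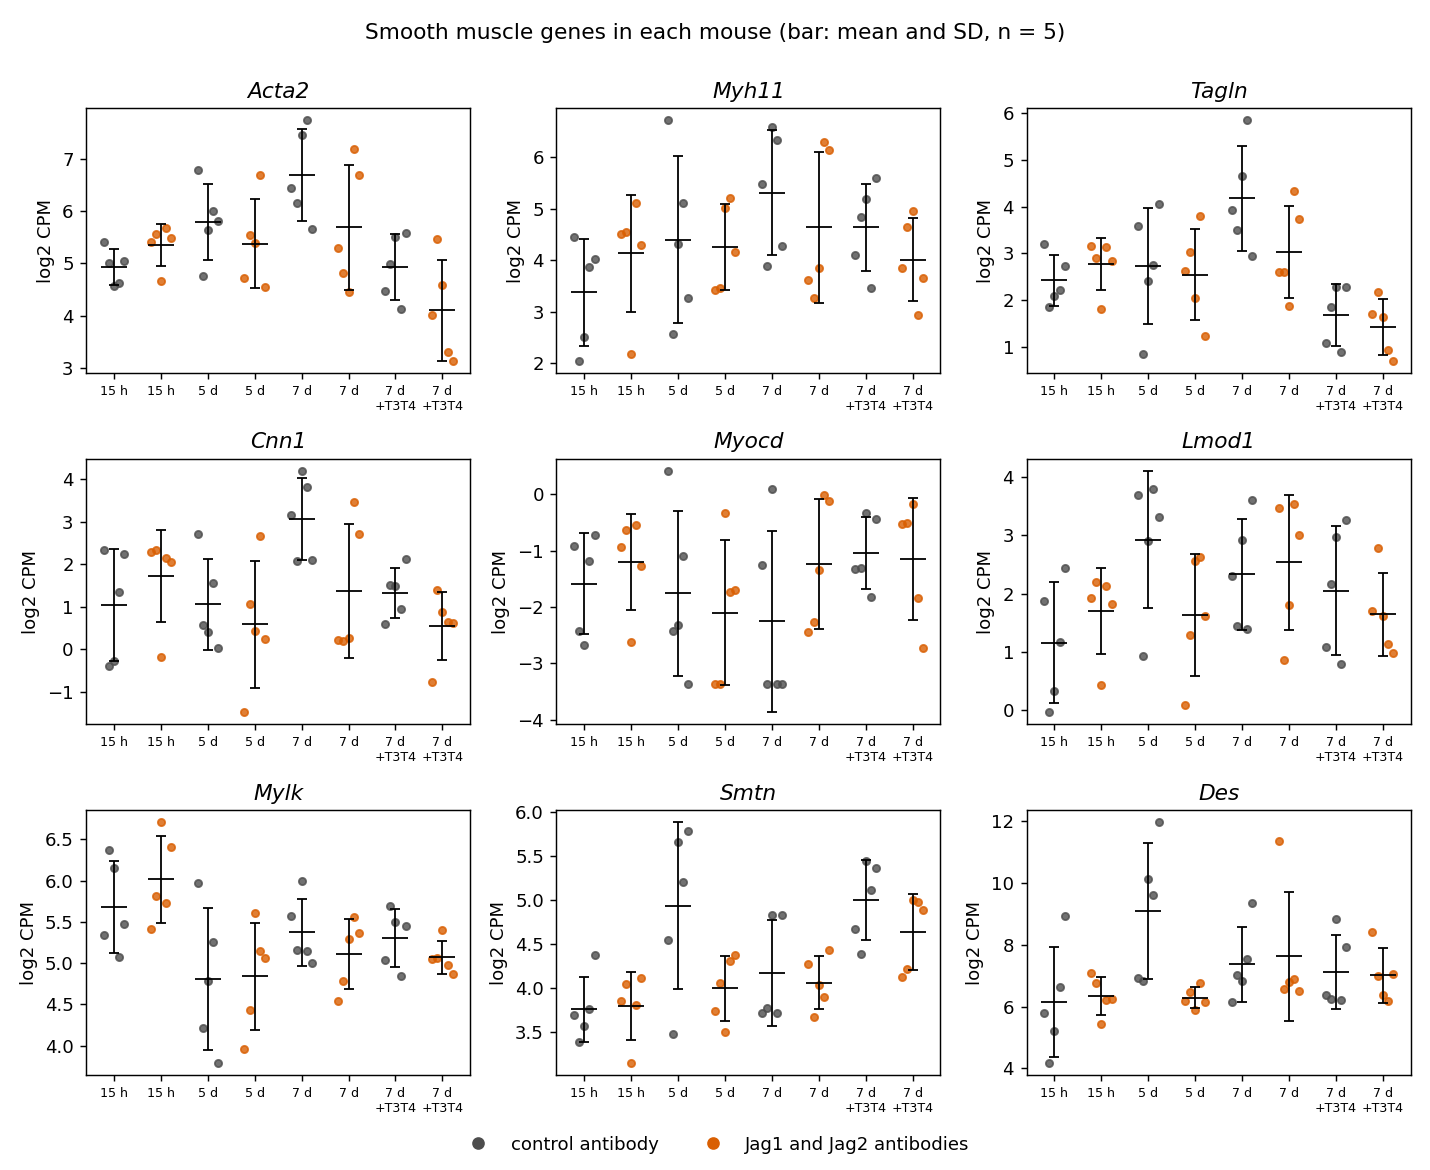
Level of each of the 9 genes in log2 CPM (vertical axis) by group (horizontal axis), 1 point per mouse, with the group mean and SD over 5 mice. Acta2 and Tagln in control mice at 7 d sit above all 5 control mice given T3 and T4, while Des reaches its highest values in 3 control mice at 5 d and 1 Jag antibody mouse at 7 d.

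Hormone lowered 3 filament genes in control mice and raised Smtn, so 4 of 9 were called at an adjusted p under 0.05. The share of all genes called was close to that, at 43.2% (22.9% lower and 20.3% higher). Acta2 fell 3.64-fold, Tagln 6.84-fold and Cnn1 3.76-fold, and Smtn rose 1.71-fold. Acta2 read 86.6, 71.3, 176, 214 and 50.6 CPM in control mice at 7 d and 22, 31.8, 45.2, 17.4 and 47.9 CPM in those given T3 and T4. The 2 groups did not overlap. The log2 fold change was -1.86 (SE 0.50), with an adjusted p of 0.00329 by edgeR's quasi-likelihood test with Benjamini-Hochberg adjustment over all genes, as for every adjusted p here.

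Tagln read 15.2, 11.2, 25.1, 57.2 and 7.65 CPM without hormone and 2.02, 3.51, 4.76, 1.77 and 4.81 CPM with it. Again the groups did not overlap, and the log2 fold change was -2.77 (SE 0.55, adjusted p = 0.000216). Of the 50-base stretches in Tagln exons, 58.3% also lie in another gene, mainly the antisense gene Gm48529, and the counting's use of strand is not given in the sources used here. With the counts of both genes summed, a choice made after seeing the data, the log2 fold change was -2.35 (adjusted p = 0.00025).

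Cnn1 read 8.86, 4.13, 18.0, 13.9 and 4.16 CPM without hormone and 1.41, 2.74, 2.71, 1.82 and 4.28 CPM with it. The groups overlapped at the edge, and the change was -1.91 on the log2 scale (SE 0.71, adjusted p = 0.0283). Smtn read 13, 13.5, 28.3, 13 and 28.3 CPM without hormone and 25.5, 20.8, 43.5, 34.4 and 41.0 CPM with it. The groups overlapped, and the log2 fold change was 0.78 (SE 0.31, adjusted p = 0.0403).

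The other 5 members did not pass, with log2 fold changes of -0.86 for Myh11, -0.30 for Des, -0.24 for Lmod1, -0.09 for Mylk and 0.60 for Myocd. The median over the 9 was -0.30, against 0.04 over all genes. The Acta2 and Tagln calls held in every alternative run and without each mouse in turn. The Cnn1 call was lost without control 7 d mouse 3 or 4 or hormone mouse 1, 3 or 4, with adjusted p from 0.0506 to 0.0773, and also with no low-count filter (0.0702) and with offsets for gene length and GC content (0.0539). The Smtn call was lost without control 7 d mouse 1, 2 or 4 or hormone mouse 3, 4 or 5, with adjusted p from 0.0609 to 0.117, and also with no filter (0.0569) and without mice whose muscle score was over 8 (0.0692).

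In Jag antibody mice hormone lowered Acta2 3.30-fold and Tagln 3.48-fold, 2 of 9 genes, against 9.5% of all genes called in either direction and 5.21% lower. Acta2 read 39.1, 28.0, 21.8, 146 and 104 CPM without hormone and 16.0, 44.2, 23.9, 9.75 and 8.70 CPM with it. Without hormone, 2 mice (9 and 10) stood far above the other 3, and the groups overlapped. The log2 fold change was -1.72 (SE 0.50, adjusted p = 0.0251). Tagln read 5.99, 6.01, 3.57, 20.1 and 13.2 CPM without hormone and 3.16, 4.40, 3.01, 1.83 and 1.54 CPM with it, also overlapping. Its log2 fold change was -1.80 (SE 0.54, adjusted p = 0.0301).

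Among the others Cnn1 stood at -1.40 (adjusted p = 0.201), Lmod1 at -1.06, Myh11 at -1.04, Des at -2.0, Smtn at 0.61, Mylk at -0.07 and Myocd at 0.04, none past the threshold. Both calls were lost without Jag antibody 7 d mouse 9 (Acta2 -1.22, Tagln -1.35, both adjusted p = 0.131) or mouse 10, and without hormone mouse 6, 9 or 10. The Tagln call was also lost without hormone mouse 8. Both were lost with no filter (adjusted p = 0.0654 for Acta2 and 0.0703 for Tagln) and with limma on log2(FPKM + 1) (0.0744 and 0.138), and Acta2 also with only the groups compared (0.12). Fitting the replicate numbers as a block, with or without the length and GC offsets, also lost both. The antibody by hormone interaction, which tests whether the hormone change differs between antibodies, called 0 of 9 genes, against 0.00586% of all genes. No member had an unadjusted p under 0.05 for it, and DESeq2 also called 0. Acta2 stood at 0.14 (SE 0.69) and Tagln at 0.97 (SE 0.75) in that interaction.

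**Figure D2:**
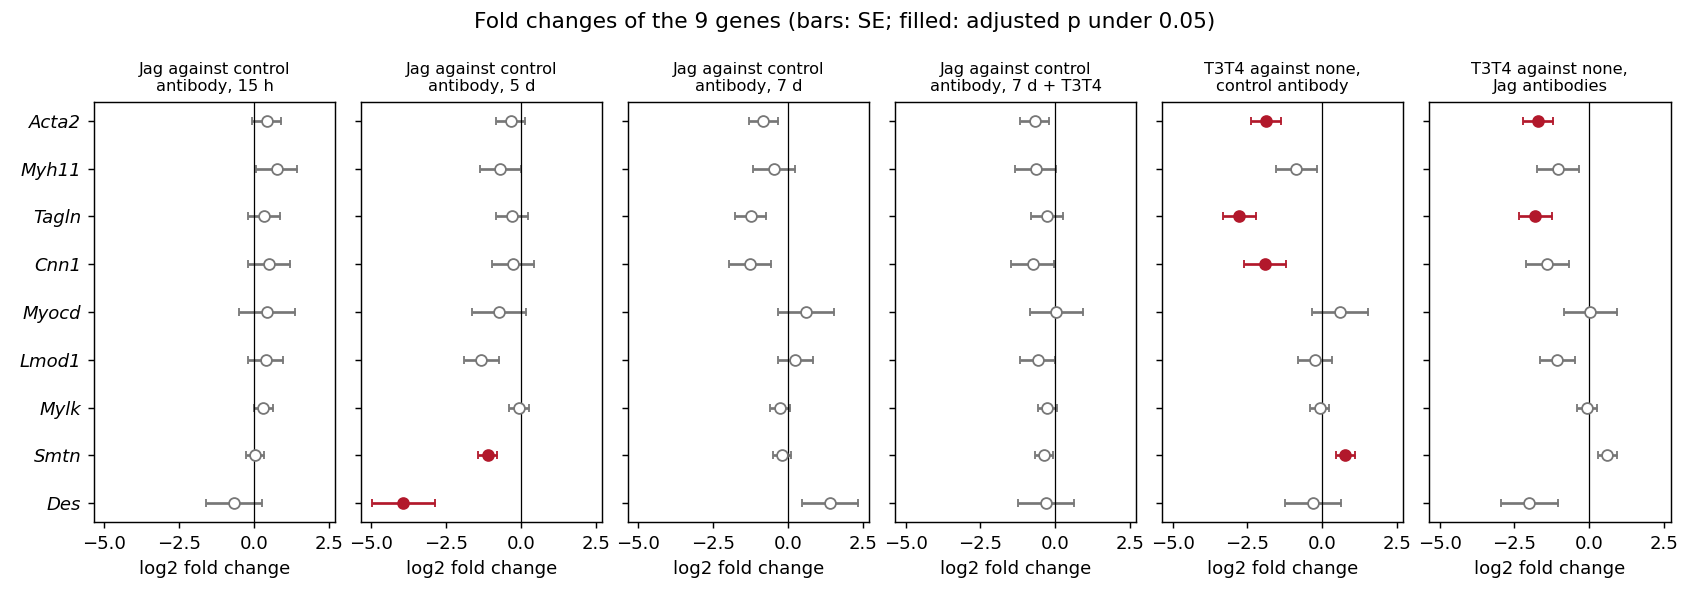
Log2 fold change of each gene (horizontal axis, bars are SE) in 4 antibody and 2 hormone comparisons, with filled red points for an adjusted p under 0.05. Acta2 and Tagln are filled and below 0 in both hormone panels, and Des and Smtn are filled in the antibody panel at 5 d.

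At 5 d Des was 15.3-fold and Smtn 2.17-fold lower in Jag antibody mice, the only members that edgeR called in any of the 4 antibody comparisons. These 2 of 9 stood against 8.02% of all genes called, 5.93% lower. Des read 121, 115, 1126, 779 and 3981 CPM in control mice and 72.6, 89.4, 59.1, 109 and 70.6 CPM in Jag antibody mice. The groups did not overlap, and 3 control mice stood far above the rest. The log2 fold change was -3.93 (SE 1.05, adjusted p = 0.02). Smtn read 23.3, 11, 50.4, 36.7 and 55.2 CPM in control mice and 13.3, 16.5, 11.2, 19.7 and 20.6 CPM in Jag antibody mice, which overlapped. Its log2 fold change was -1.12 (SE 0.31, adjusted p = 0.0249).

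Desmin is also a protein of skeletal muscle, and the muscle score ran from 5.10 to 13.7 in the control mice and from -2.69 to 2.20 in those given Jag antibodies. These ranges did not overlap, so antibody and muscle score cannot be told apart at 5 d. When that score entered the fit as a covariate, with its slope drawn from all groups, Des stood at -0.74 (adjusted p = 0.768) and Smtn at -0.66 (adjusted p = 0.515). A limit of 8 on the muscle score, chosen after seeing the data, left 1 control mouse at 5 d. Without the mice over that limit, Des stood at -0.53 and Smtn at 0.55. The control mouse left, mouse 2, had the lowest Des and Smtn of its group. The Des call was lost without control mouse 5 (-2.80, adjusted p = 0.107) or Jag antibody mouse 8 or 10, and with limma (0.0509). The Smtn call was lost without control mouse 3 or 5 or Jag antibody mouse 6 or 8, and with only the groups compared (0.146). All 9 genes had a negative fold change at 5 d, with a median of -0.69 against 0.04 over all genes. The members' median was -0.44 with the muscle score as a covariate and turned to 0.82 without the high-muscle mice. Lmod1 stood at -1.33 (adjusted p = 0.162), and Acta2, Tagln, Cnn1, Myh11, Mylk and Myocd lay between -0.73 and -0.06.

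**Figure D3:**
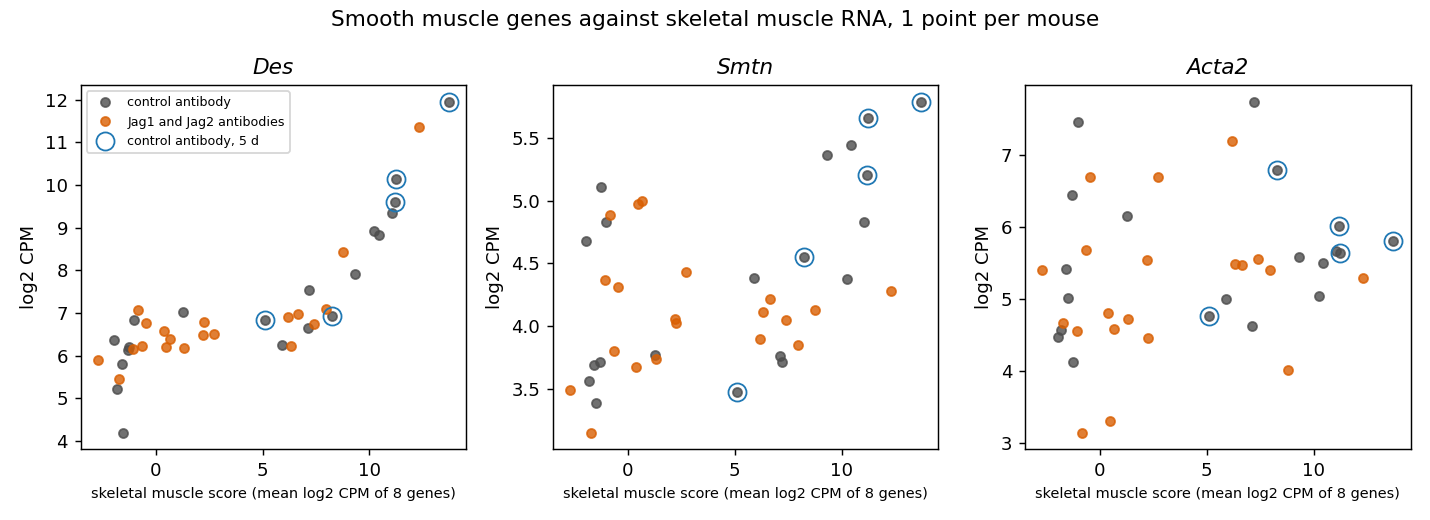
Log2 CPM of Des, Smtn and Acta2 (vertical axes) against the skeletal muscle score (horizontal axis), 1 point per mouse, with control mice at 5 d ringed. Des climbs steeply at high scores (r = 0.82 over 40 mice), Smtn less so (r = 0.45), and Acta2 shows little relation (r = 0.23).

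At the other times no member was called for antibody. At 15 h 0 of 9 were called, against 1.14% of all genes, and 0 had an unadjusted p under 0.05. Acta2 read 42.4, 32.0, 23.5, 24.5 and 32.8 CPM in control mice and 42.2, 47.0, 25.3, 51.0 and 44.6 CPM in Jag antibody mice. The groups overlapped, at a log2 fold change of 0.44 (SE 0.49). At 7 d 0 of 9 were called, against 2.5% of all genes, with 1 unadjusted p under 0.05. That gene was Tagln, at -1.25 (SE 0.53, adjusted p = 0.176), and Cnn1 stood at -1.27 and Acta2 at -0.82. At 7 d with T3 and T4, 0 of 9 were called, against 1.14% of all genes, with no unadjusted p under 0.05 and log2 fold changes from -0.75 to 0.04. DESeq2 called 0 members in each of these 3 comparisons. Averaged over the 4 antibody comparisons, edgeR called 0 of 9 members, against 11.7% of all genes. Smtn alone had an unadjusted p under 0.05, at -0.41 (SE 0.15, adjusted p = 0.0758), and DESeq2 called 1 member. For a difference between the 4 antibody comparisons, edgeR called 0 of 9, against 0.427% of all genes. Des alone had an unadjusted p under 0.05 there (adjusted p = 0.13), and DESeq2 called 1 member.

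The 7 d groups were then set against earlier groups, in 6 comparisons added after the data had been seen. In control mice 4 genes rose from 15 h to 7 d, Acta2 3.85-fold, Myh11 4.13-fold, Tagln 4.14-fold and Cnn1 3.66-fold, or 4 of 9 against 45.1% of all genes, 21.6% higher. The Acta2 values did not overlap (log2 fold change 1.95, SE 0.50, adjusted p = 0.00212). Myh11 read 21.6, 4.03, 5.6, 14.5 and 16.0 CPM at 15 h and 44.5, 14.6, 96.1, 80.7 and 19.3 CPM at 7 d, which overlapped (adjusted p = 0.0195). The Tagln and Cnn1 values overlapped too, with adjusted p of 0.00247 and 0.031. The Myh11 call was lost without 15 h mouse 2 or 3 or 7 d mouse 3. The Cnn1 call was lost without 15 h mouse 2, 3 or 4 or 7 d mouse 3 or 4, with no filter (adjusted p = 0.0637) and with the length and GC offsets (0.0658). Other markers moved with this rise. Of 10 markers each, 5 pericyte, 5 endothelial and 5 brown adipocyte markers were called higher and 0 lower. The share of all genes called higher was 21.6%, and 45.1% in either direction. Of 10 fibroblast markers 0 were higher and 2 lower. The summed level from 15 h to 7 d went from 278 to 784 CPM to 443 to 900 CPM for pericyte markers, from 501 to 644 CPM to 522 to 975 CPM for endothelial ones and from 8767 to 24751 CPM to 34042 to 74541 CPM for brown adipocyte ones. Their part in the rise of the smooth muscle genes was not tested.

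From 5 d to 7 d in control mice, edgeR called 0 of 9 members, against 9.13% of all genes, so the higher level at 7 d was seen against 15 h and not shown against 5 d. In that comparison 4 members had an unadjusted p under 0.05, and DESeq2 called 4. Acta2 stood at 0.96 (SE 0.49, adjusted p = 0.199), Tagln at 1.47 (adjusted p = 0.0711), Cnn1 at 1.91 (adjusted p = 0.0787) and Smtn at -0.87 (adjusted p = 0.068). Both 7 d comparisons and the hormone comparison share the same 5 control mice at 7 d.

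Control mice given hormone had Smtn 2.40-fold above control mice at 15 h (1.26, SE 0.31, adjusted p = 0.00559), without overlap, the only 1 of 9 called against 15.6% of all genes, 7.32% higher. Acta2 stood at 0.08 and Tagln at -0.72 there, neither past the threshold. Against control mice at 5 d, Des was lower (-2.72, SE 0.99, adjusted p = 0.044), 1 of 9 against 23.8% of all genes, 13.5% lower. That call was lost without 5 d mouse 3 or 5 or hormone mouse 1, 2, 4 or 5, and stood at -0.97 (adjusted p = 0.259) with the muscle score as a covariate.

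In Jag antibody mice, Mylk fell from 15 h to 7 d (-0.94, SE 0.32, adjusted p = 0.0401) and Des rose (2.80, SE 1.00, adjusted p = 0.0467), 2 of 9 against 18.3% of all genes (7.93% lower, 10.4% higher). Des read 2622 CPM in mouse 6 at 7 d and 90.3 to 120 CPM in the other 4. Without that mouse, whose muscle score was 12.3, Des stood at 0.25 (adjusted p = 0.854), and the call was also lost without any 1 of the 15 h mice. The Mylk call was lost without 15 h mouse 8 or 10 or 7 d mouse 6, 7 or 10, with no filter (0.0786) and without the high-muscle mice (0.0627). With hormone, Mylk was lower than at 15 h (-1.01, SE 0.33, adjusted p = 0.0269) and Smtn higher (0.86, SE 0.31, adjusted p = 0.0494), both without overlap, 2 of 9 against 17.5% of all genes (8.54% lower, 8.94% higher). Mylk read 42.5, 56.1, 104, 53.1 and 84.7 CPM at 15 h and 33.0, 33.2, 42.2, 31.5 and 29.0 CPM with hormone. Its call was lost without 15 h mouse 8 or 10 or hormone mouse 9 or 10 and with no filter (0.0603). The Smtn call was lost without any 1 of the 15 h mice or hormone mouse 8, 9 or 10, and with RLE factors, no filter, limma or the length and GC offsets (adjusted p from 0.0591 to 0.234). In this comparison 3 members were higher and 6 lower, and 4 had an unadjusted p under 0.05. Mean log2 CPM was 5.36 at 15 h and 4.10 with hormone for Acta2, and 2.77 and 1.43 for Tagln, neither called.

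Acta2, Myh11, Tagln and Cnn1 varied together between mice. Over the 40 mice, Pearson's r of log2 CPM was 0.91 between Acta2 and Tagln, 0.79 between Myh11 and Cnn1, 0.76 between Acta2 and Cnn1 and 0.74 between Acta2 and Myh11. With group means subtracted these were 0.87, 0.84, 0.76 and 0.80. Myocd went with Myh11 at an r of 0.62 over the 40 mice and 0.82 within groups. With Cnn1, Acta2 and Tagln its r was 0.42, 0.20 and 0.04 over the 40 mice and 0.66, 0.59 and 0.35 within groups. Its lowest group mean was in control mice at 7 d, at -2.26 log2 CPM. Lmod1 went with Myh11 (0.68), Des (0.64), Acta2 (0.58) and Cnn1 (0.52) alike. Des had an r of 0.61 with Smtn and of -0.49 with Mylk. Its r with the muscle score was 0.82, against 0.62 for Lmod1 and -0.26 for Mylk. These are descriptions over mice whose libraries differ in depth and tissue makeup, which all genes of a library share.

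**Figure D4:**
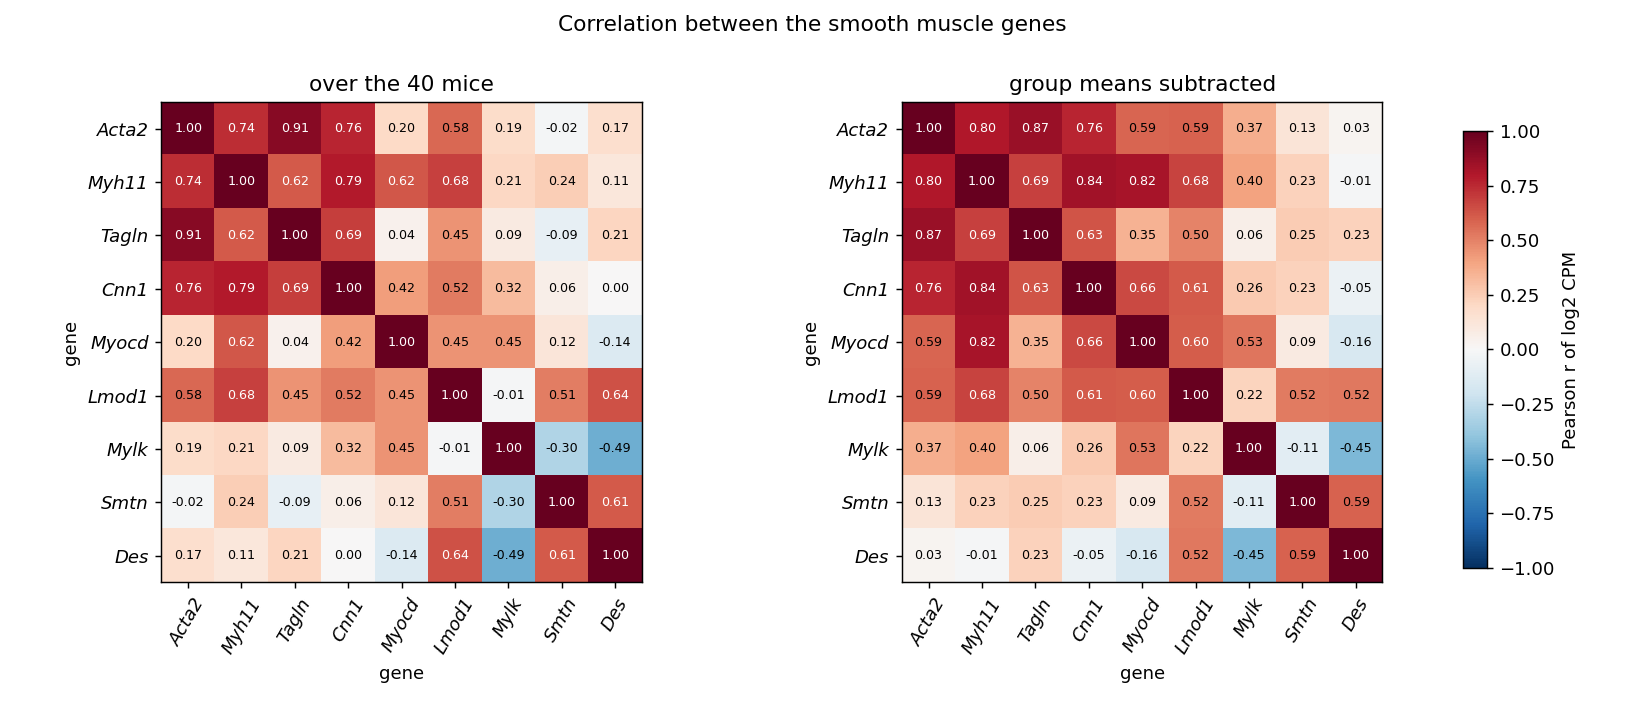
Pearson r of log2 CPM between each pair of the 9 genes over 40 mice (left) and with group means subtracted (right), genes on both axes and colour from -1 to 1. Acta2, Myh11, Tagln and Cnn1 form a warm block (0.62 to 0.91 at left), while Des runs from 0.00 to 0.21 with them.

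The genes outside the set whose level followed it most closely were picked by Pearson's r with the mean standardised level of the 9, over 40 mice and 12119 candidates. They were Sorbs2 (0.84), Myl9 (0.78), the regulatory light chain of smooth muscle myosin, Sema3b (0.73), Tgfb3 (0.71), Gm48529 (0.69), Ccn2 (0.68), Sfrp5 (0.68) and Itgb4 (0.67). Gm48529 overlaps Tagln. With group means subtracted the leading 8 were Sorbs2 (0.86), Gm48529 (0.78), Cytl1 (0.78), Myl9 (0.77), Slc43a3 (0.76), Amigo2 (0.75), Itgb4 (0.72) and Mrvi1 (0.71).

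Of 24 contractile and cytoskeletal partners, hormone in control mice raised 6 and lowered 3, no more than the 43.2% of all genes called (20.3% higher, 22.9% lower). Actn1 (2.01), an actin cross-linker, Vcl (1.93), an adhesion protein, and Aoc3 (1.46), an amine oxidase, rose most. The myosin light chains Myl9 (-1.79) and Myl6 (-1.0) fell, as did Ppp1r14a (-1.35), an inhibitor of myosin phosphatase. In Jag antibody mice 1 rose (Aoc3, 1.67) and 1 fell (Myl6, -0.65), against 9.5% of all genes. For antibody at 5 d 0 rose and 6 fell, against 8.02% of all genes, led by Tpm2 (-7.69), Tpm1 (-5.87) and Hspb6 (-5.32), in the comparison where the muscle score differed. At 7 d 0 rose and 2 fell, Ppp1r14a (-1.65) and Myl6 (-0.77), against 2.5% of all genes.

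Of the transcriptional regulators, 20 of 21 were tested, and hormone in control mice raised 10 and lowered 3, against the same 43.2% of all genes (20.3% higher, 22.9% lower). Klf5 (4.29), Prrx1 (1.71) and Tead1 (1.62) rose most, and Csrp2 (-1.37), Klf4 (-0.71) and Srf (-0.64, adjusted p = 0.0279) fell. In Jag antibody mice hormone raised 1 and lowered 1, against 9.5% of all genes. Srf fell there too (-0.75, adjusted p = 0.0402), and Notch3 rose (1.10). Notch3 had also risen with hormone in control mice (1.31, adjusted p = 0.00323). Antibody lowered 1, 2, 1 and 1 of the 20 at 15 h, 5 d, 7 d and 7 d with hormone, and raised 0. The shares of all genes called were 1.14%, 8.02%, 2.5% and 1.14% in the same order. Rbpj fell at 15 h (-1.27), and Foxs1 (-1.71) and Notch3 (-1.18) at 5 d, where the muscle score differed. Foxs1 fell at 7 d (-1.68) and Notch3 at 7 d with hormone (-1.35).

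Among 24 channels and receptors, hormone in control mice raised 7 and lowered 2, again no more than the 43.2% of all genes. The adrenergic receptor gene Adra1b (3.21), Pdgfrb (1.31) and the prostacyclin receptor gene Ptgir (1.19) rose, and Kcnmb1 (-2.45), a subunit of the calcium-activated potassium channel, and Ptger3 (-1.45) fell. In Jag antibody mice Pdgfrb alone was called (1.15), 1 of 24 against 9.5% of all genes. Antibody raised 1, 2, 0 and 0 at 15 h, 5 d, 7 d and 7 d with hormone, and lowered 0, 3, 1 and 1. The shares of all genes called were 1.14%, 8.02%, 2.5% and 1.14% in the same order. Agtr1a rose at 15 h (0.85) and 5 d (0.79), and Adra1a at 5 d (0.75). Kcnma1 (-5.38), Ptger3 (-1.75) and Pdgfrb (-0.60) fell at 5 d, where the muscle score differed. Kcnj8 fell at 7 d (-1.30) and Gucy1b1 at 7 d with hormone (-1.05).

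Pericytes are the other mural cells of the vessel wall, and of 10 pericyte markers antibody lowered 1, 6, 6 and 4 at 15 h, 5 d, 7 d and 7 d with hormone, and raised 0. The shares of all genes called were 1.14%, 8.02%, 2.5% and 1.14% in the same order. At 7 d Cox4i2 (-2.40), Rgs5 (-2.37) and Ndufa4l2 (-1.99) fell most, and the summed marker level was 443 to 900 CPM in control mice and 191 to 305 CPM in Jag antibody mice. The difference between these markers and the 9 smooth muscle genes was not tested. With hormone in control mice, where 43.2% of all genes were called, 2 pericyte markers rose and 2 fell. Of 10 endothelial markers 6 rose and 2 fell, with a summed level of 522 to 975 CPM without hormone and 957 to 1289 CPM with it. Of 10 fibroblast markers 5 rose and 0 fell, with 786 to 1366 CPM without hormone and 2310 to 4718 CPM with it, led by Col1a1 (3.03). Of 10 brown adipocyte markers 6 fell and 0 rose, led by Elovl3 (-3.52). The part of these shifts in the smooth muscle values was not tested. Skeletal muscle markers did not pass the test with hormone (0 of 8 by edgeR), and in the antibody comparison at 5 d 6 of 8 fell.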

How the data were processed

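The authors deposited raw counts per Ensembl gene and a companion FPKM table for the same 40 mice. GSNAP and limma are named in the submitters' processing notes. The genome build, counting program and use of strand are not given in the sources used here. From its values, FPKM equals the count over a median-of-ratios size factor and a gene length. Per the labels' protocols, RNA was read as single-end 50 bp reads.

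The count model was edgeR 4.0.16 (R 4.3.3), with filterByExpr over 8 groups, TMM, robust quasi-likelihood F tests in 1 model, Benjamini-Hochberg at 0.05. Log2 CPM used a prior count of 2, and SEs follow from the F statistic. Alternatives used DESeq2 1.42.0, RLE factors, no filter, only the groups compared, a muscle covariate, limma 3.58.1 on log2(FPKM + 1), length and GC offsets, a replicate block and each mouse left out. The script was tested on simulated data. Symbols matched 52403 identifiers, and coordinates and lengths are from GENCODE M21 on GRCm38.

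All 9 members were tested in every comparison. Each member called by the main edgeR fit was named there, and members not called were named only in part. The planned rule allowed up to 3 called genes per list and direction with the largest change, plus the 8 most alike genes. Not every list gene under that rule is printed, and a list of cardiac muscle markers was run and is not described. The members and lists were chosen with earlier results of these data known. After seeing the data, 6 comparisons, the summed Tagln counts and the muscle score limit were added.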

Additional observations from a re-analysis of the deposited data

Results flagged for a closer look

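In each of 72 gene and group combinations the highest and lowest mouse were compared with the rest by Dixon's ratio, and 6 stood apart, where chance gives about 3.6. Of these, 5 were the same library, Jag antibody mouse 8 at 15 h, which was the lowest of its group. Its log2 CPM was 4.67 for Acta2 (next mouse 5.40), 2.17 for Myh11 (4.30), 1.81 for Tagln (2.84), -0.18 for Cnn1 (2.05) and 0.423 for Lmod1 (1.83). Its muscle score was -1.74. The 6th was Des in Jag antibody mouse 6 at 7 d, at 11.4 log2 CPM against 6.91 in the next mouse, with a muscle score of 12.3.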

How the results depend on the processing

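The number of members called moved by over 1.5 times in the comparisons that follow. Antibody at 5 d went from 2 to 1 with only the groups compared or limma, and to 0 with the muscle covariate or without mice with a muscle score over 8, where Smtn reversed to 0.55 (adjusted p = 0.461). DESeq2 called 1 for the antibody mean and 1 for its variation, against 0. Hormone in control mice went from 4 to 2 with no filter. Hormone in Jag antibody mice went from 2 to 0 with no filter, limma or the replicate block, to 1 with only the groups compared, and to 1 (Smtn) under the block combined with offsets for length and GC. Control 7 d against 5 d went from 0 to 4 with DESeq2, 1 with the muscle covariate or limma, 2 with the replicate block and 3 with the block and offsets. Control with hormone against 15 h went from 1 to 2 with the offsets, without or with the block. Control with hormone against 5 d went from 1 to 2 with DESeq2 and to 0 with no filter, only the groups compared, the muscle covariate, limma, the offsets with or without the block, or the muscle limit. Jag antibody 7 d against 15 h went from 2 to 0 with no filter or the muscle limit, and to 1 with only the groups compared, the muscle covariate, limma, the offsets, the replicate block or both. Jag antibody with hormone against 15 h went from 2 to 1 with RLE, limma or the offsets with or without the block, and to 0 with no filter. Control 7 d against 15 h stayed within that, at 3 to 5 against 4, losing Cnn1 with no filter and with the offsets and gaining Des (1.26, adjusted p = 0.00745) under the muscle limit. The causes were not tested.

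With each mouse dropped in turn there were 0 to 2 calls for antibody at 5 d, 0 to 1 for the antibody mean, 2 to 4 for hormone in control mice, 0 to 2 for hormone in Jag antibody mice, 2 to 5 for control 7 d against 15 h, 0 to 3 for control 7 d against 5 d, 1 to 1 for control with hormone against 15 h, 0 to 2 for it against 5 d, 0 to 2 for Jag antibody 7 d against 15 h, 0 to 3 for it with hormone, and 0 to 0 for the other 5.

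The number of all genes called moved by over 1.5 times as follows. Antibody at 15 h went from 194 to 577 (DESeq2), 118 (muscle covariate), 73 (muscle limit), 26 (no filter, limma) and 0 (only the groups compared). Antibody at 5 d went from 1369 to 837 (no filter), 639 (only the groups compared), 254 (muscle limit) and 89 (muscle covariate). Antibody at 7 d went from 427 to 858 (DESeq2), 191 (no filter), 133 (muscle limit) and 35 (only the groups compared), and with hormone from 194 to 662 (only the groups compared), 505 (limma), 449 (DESeq2), 117 (no filter) and 21 (muscle limit). The interaction went from 1 to 36 (limma), 9 (DESeq2) or 0. Antibody variation went from 73 to 898 (DESeq2), 153 (block with offsets), 141 (offsets), 136 (limma), 37 (no filter), 20 (muscle limit) and 14 (muscle covariate). Hormone in Jag antibody mice went from 1622 to 2663 (only the groups compared) and 990 (no filter). Control 7 d against 5 d went from 1559 to 2 (muscle limit), 138 (only the groups compared), 382 (muscle covariate) and 818 (no filter). Control with hormone against 5 d went from 4057 to 693 (only the groups compared), 2491 (muscle covariate) and 2695 (no filter). Jag antibody 7 d against 15 h went from 3126 to 1746 (block with offsets), 1935 (offsets) and 2057 (no filter), and with hormone from 2986 to 5581 (only the groups compared). With each mouse dropped in turn the count ran from 6 to 683 for antibody at 15 h, 384 to 2833 at 5 d, 144 to 912 at 7 d, 79 to 241 at 7 d with hormone, 11 to 348 for its variation, 0 to 2 for the interaction, 1002 to 1903 for hormone in Jag antibody mice, 512 to 2632 and 1395 to 6143 for control 7 d without and with hormone against 5 d, and 1678 to 3167 for Jag antibody 7 d against 15 h.

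Same-numbered mice are different animals. Their deviations correlated at -0.40 to 0.74 over 30 pairs of mice in 6 pairs of groups, 17 of them over 0.1. In 8 of the 30 pairs the same-numbered mouse was the best match, and some such matches would arise by chance. Whether the replicate numbers link the mice was not tested. Fold changes of hormone in control mice followed exonic length (Spearman rho 0.42 over genes, which are not independent replicates), and with the offsets Mylk was called (-0.77, adjusted p = 0.0265) and Cnn1 was not (adjusted p = 0.0539). Counts of Myocd limit what could be seen of it.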
